A study of Mus musculus with 12 samples.

Results

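The 40 genes described here encode proteins of the DNA replication machinery. They were taken from a list of gene symbols, and all 40 were found among the 18193 genes with a named probe set on the array and among the 12797 genes that were tested. They fall into 11 roles, from origin recognition to nucleotide supply. Several probe sets were present for 32 of the 40, and the brightest on average across the 12 arrays stood for the gene.

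The arrays profile a mouse model of T cell lymphoma driven by ZMYM2-FGFR1, a fusion of a zinc finger protein with the kinase FGFR1. The ZNF112 array (n = 1) held unsorted cells of a line that the labels describe no further. The T lymphoma arrays (n = 4) came from mice of the third serial transplant: 3 tumours were profiled unsorted, with more than 90% of cells GFP+ Thy1+ and positive for both CD4 and CD8, and the fourth was sorted for such cells. The double-positive (DP) thymocytes (n = 3) were sorted Thy1+ CD4+CD8+ cells of normal Balb/c mice, each sample pooled from 3 animals. Leukaemia stem cells (LSC, n = 2) were GFP+ cells, lineage-negative with Sca-1 and c-Kit on the surface, sorted from marrow or spleen of 2 to 3 diseased mice per sample. Haematopoietic stem cells (HSC, n = 2) were normal Balb/c marrow cells sorted by those surface markers, pooled from 5 females. The labels call the samples biological replicates and state no age. The lymphoma and LSC labels name no mouse strain, and the cell line has no normal counterpart of its own here.

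A replication origin is first bound by the origin recognition complex, which with Cdc6 and Cdt1 loads the ring of Mcm2 to Mcm7, the core of the replicative helicase. In S phase the Cdc7-Dbf4 kinase, Mcm10, Cdc45 and the GINS complex turn this ring into a working helicase. DNA polymerase alpha and primase then lay down primers, polymerases delta and epsilon extend them on the sliding clamp Pcna, and Fen1 and Lig1 finish the lagging strand. Many of these genes are transcribed under E2F control as cells enter the cycle, so their transcripts are abundant in dividing and scarce in resting cells. Normal DP thymocytes are a mixture of dividing blasts and small resting cells, and the lineage-negative Sca-1+ c-Kit+ marrow gate holds cycling progenitors as well as stem cells.

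Values are log2 of the deposited array intensity. The array medians were 99.5 to 109 intensity units on the T cell side (cell line, lymphoma and DP thymocytes) and 44.3 to 46.1 on the stem cell side (LSC and HSC), so the sides looked normalized apart and differences were taken only within a side. The ratio of 3' to 5' Actb control signal, which is higher where RNA is shorter, was 13.6 and 9.82 in the LSC arrays, against 5.79 and 3.91 in the HSC arrays. It was 2.60 in the cell line, 2.44 to 3.69 in T lymphoma and 2.18 to 2.23 in DP thymocytes. The same ratio for Gapdh was 7.84 and 8.13 in LSC 1 and LSC 2, against 6.68 and 3.64 in HSC 1 and HSC 2. On the T cell side the Gapdh ratio ran from 2.67 in the cell line to 4.56 in the sorted lymphoma. The labelled cell types were checked against marker lists. The 6 T cell markers summed to an intensity of 3266 and 17077 in LSC 1 and LSC 2, against 692 and 442 in HSC 1 and HSC 2, so the LSC arrays carried T cell transcripts and LSC 2 the more. The 8 granulocyte markers summed to 13111 and 1883 in LSC 1 and LSC 2, against 38612 and 54915 in the HSC arrays. Of the 7 stem cell markers measured, 5 and 3 were above the low-value filter in LSC 1 and LSC 2, against all 7 in each HSC array. Their sum was 8083 and 3348 in LSC 1 and LSC 2, against 8269 and 12249 in HSC 1 and HSC 2. By sum LSC 1 was thus close to HSC 1, but the single markers differed. Kit, the gene of the sort marker c-Kit, was higher in LSC 1 than in HSC 1, as were Cd34 and Slamf1. Hlf was lower in LSC 1, at 5.37 against 10.66 in HSC 1. Mecom was at 5.92 against 9.797 and Meis1 at 8.19 against 10.36, and Procr was slightly lower. The 10 macrophage markers summed to 1993 in the cell line, to 25525 to 55401 in the unsorted lymphomas and 3546 in the sorted one, and to 1222 to 1375 in DP thymocytes. The 8 stroma and endothelium markers summed to 786 in the cell line, to 14236 to 30400 in the unsorted lymphomas and 716 in the sorted one, and to 737 to 860 in DP thymocytes. The 6 NK and cytotoxic markers summed to 22097 and 29788 in LSC 1 and LSC 2, against 864 and 2482 in the HSC arrays. On each of these arrays 3 of the 6 were above the filter. Most of the LSC signal was Gzma, at 14.24 and 14.59, against 6.48 and 6.59 in HSC. The 6 erythroid markers summed to 4537 and 350 in LSC 1 and LSC 2, against 4643 and 9875 in the HSC arrays. In bulk RNA, fewer cells of a type and less RNA per cell cannot be told apart.

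The 40 replication genes were above the filter on low values on nearly every array: 37 exceeded the filter (log2 6.33) on all 12. Those that did not were Orc1 at 6.01 in LSC 1, Rfc3 at 5.93 in LSC 1, and Tyms at 3.999 and 4.46 in LSC 1 and LSC 2 and 5.26 in HSC 1. After subtraction of each array's median, the median of the 40 genes was 4.80 in the cell line, 3.71 to 4.15 in T lymphoma and 3.49 to 4.04 in DP thymocytes. It was 3.69 in both LSC arrays, against 3.95 and 5.28 in HSC 1 and HSC 2. The same median over all 12797 tested genes lay between 2.20 and 2.66. The cell line and HSC 2 therefore stood highest for replication transcripts on their sides.

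**Figure D1:**
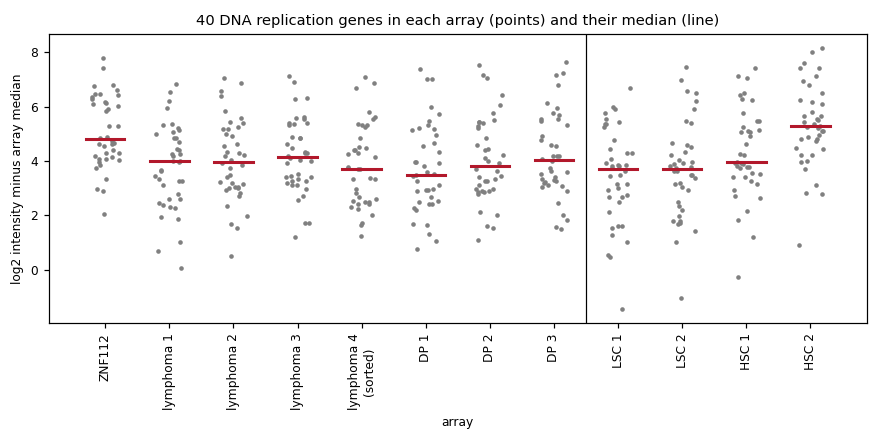
Log2 intensity minus the array median (vertical axis) of the 40 DNA replication genes on each of the 12 arrays, with 1 point per gene and a line at their median. The median was 4.80 in the ZNF112 cell line and 5.28 in HSC 2, and between 3.49 and 4.15 on the other 10 arrays.

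T lymphoma was set against DP thymocytes to compare tumour cells with normal cells of the same labelled surface phenotype. The 7 DP thymocyte markers measured summed to 42773 to 62656 in T lymphoma, against 94253 to 107449 in DP thymocytes and 37264 in the cell line. Cd4 measured 9.61 to 11.01 in T lymphoma, against 13.02 to 13.30 in DP thymocytes. Only Ptcra was higher, at 10.36 to 12.41 against 9.23 to 9.59. In the cell line Cd4 was at 6.88 and Cd8b1 under the filter, at 6.19. The 40 genes lay on both sides of 0 with a median near it, and 1 gene was called: Prim2, the large subunit of primase, was 3.71-fold higher in T lymphoma. By limma with Benjamini-Hochberg adjustment over all genes, 1 of 40 members was higher and 0 were lower, where 3.37% of all tested genes were called higher and 3.18% lower. At an unadjusted p under 0.05, 2 of the 40 passed, where 22.6% of all tested genes did, so fewer members than the background share. The log2 differences of the 40 ran from -1.11 to 1.89, with 21 above 0 and 19 below, and their median was 0.03, against -0.02 over all tested genes. The members' median SD within T lymphoma was 0.39, and differences well above that size also went uncalled. Rrm2, at -1.11 ± 0.49 (SE), had an adjusted p of 0.219 by limma. The 10 macrophage markers were high in the unsorted lymphomas, and their part in these values was not tested.

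Prim2 measured 11.61, 11.35 and 11.41 in the unsorted lymphomas and 12.20 in the sorted one, against 9.63, 9.64 and 9.98 in DP thymocytes. All 4 lymphomas lay above all 3 DP samples, and the sorted tumour was the highest. The log2 difference was 1.89 ± 0.47 (SE; adjusted p = 0.0452 by limma). A second Prim2 probe set differed by 1.90 with an adjusted p of 0.0792, and the third by 0.27 with 0.496. The call sat at the edge of the threshold: 9 of 23 other settings kept it and 14 did not, with adjusted p between 0.000247 and 0.295 and log2 differences between 1.35 and 2.45. It was lost when any 1 DP array (adjusted p 0.126 to 0.172), any 1 lymphoma (0.0604 to 0.0972) or any 1 HSC array (0.0565) was left out. Without LSC 1 or LSC 2 the count of called members was 2.

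The partners of Prim2 had log2 differences near 0. Prim1, the catalytic primase subunit, measured 10.77, 10.94 and 12.16 in the unsorted lymphomas and 9.98 in the sorted one, against 10.67, 11.09 and 11.22 in DP thymocytes. The lymphoma values of Prim1 spanned those of the DP samples on both sides, with a log2 difference of -0.03 ± 0.49 (SE). Pola1, the catalytic subunit of polymerase alpha, differed by 0.13 ± 0.41, and its accessory subunit Pola2 by 0.06 ± 0.37. Whether the Prim2 difference itself departs from that of its partners was not tested.

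**Figure D2:**
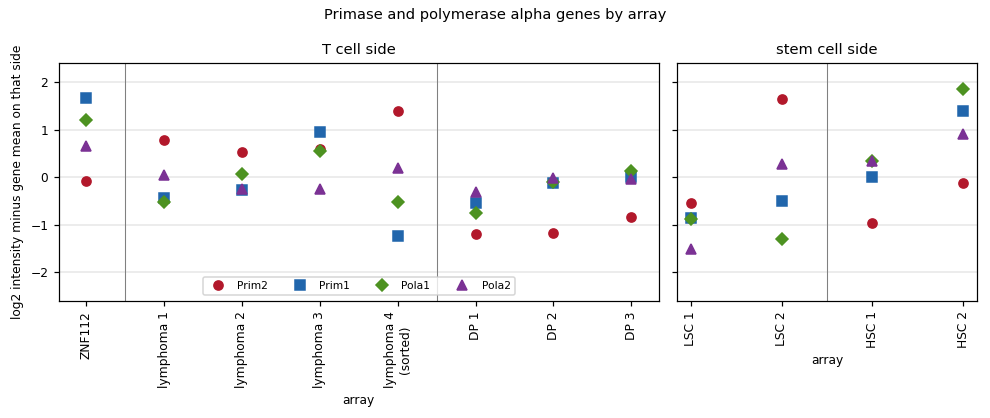
Log2 intensity of the primase and polymerase alpha genes on each array, minus the gene's mean over the arrays of that side (vertical axis), with the ZNF112 cell line, T lymphoma and DP thymocytes in the left panel and LSC and HSC in the right. Prim2 sits above its mean in all 4 lymphomas and in LSC 2 and below it in the other arrays, while Prim1, Pola1 and Pola2 do not share this pattern.

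Members of the other roles were not called in this comparison. Origin recognition genes differed by -0.15 (Orc6) to 0.40 (Orc1), and the licensing factors by -0.72 (Cdc6) and -0.31 (Cdt1). In the MCM ring the range was -0.56 (Mcm2) to 0.12 (Mcm6), with Mcm4 also at 0.12. The kinase genes differed by -0.15 (Cdc7) and 0.17 (Dbf4). Mcm2 measured 11.83, 11.97, 11.61 and 11.14 in T lymphoma, against 12.03, 12.12 and 12.44 in DP thymocytes. Every lymphoma was below every DP sample for 4 of the 40 members, Mcm2, Mcm7, Pcna and Rrm2, where 19.1% of all tested genes were so. Every lymphoma was above every DP sample for 4, Gins4, Rfc2, Rpa2 and Prim2, where 15.3% were. Of these 8 genes only Prim2 passed the test.

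The helicase activators ran from -0.14 (Cdc45) to 0.77 (Gins2), with Mcm10 at 0.07. Polymerases epsilon and delta were close to 0, between 0.02 (Pole2) and 0.25 (Pole). The clamp Pcna was at -0.52 and the clamp loader gene Rfc5 at -0.02. The single-strand binding genes went apart, with Rpa1 at -0.56 and Rpa2 at 0.44. Rpa1 measured 12.98, 13.08 and 13.04 in the unsorted lymphomas and 13.74 in the sorted one, against 13.71, 13.75 and 13.85 in DP thymocytes. Thus the sorted tumour lay within the DP range for Rpa1 and the unsorted tumours below it. Fen1, which trims primer flaps, was at 0.29 and Lig1, which seals the nicks, at -0.23.

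Nucleotide supply held the lowest value of the comparison. Rrm2, the small and cell-cycle-regulated subunit of ribonucleotide reductase, measured 11.61, 12.16, 12.10 and 12.02 in T lymphoma, against 12.70, 13.09 and 13.47 in DP thymocytes. The groups did not overlap, with a log2 difference of -1.11 ± 0.49 (SE), but the adjusted p was 0.219 by limma. Its other probe sets gave -1.24 (adjusted p = 0.0690) and -1.07 (0.264). Rrm1, the large subunit, differed by 0.13, Tk1 by 0.21, Tyms by -0.60 and Dut by -0.67.

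LSC were set against HSC to compare leukaemic with normal cells of 1 surface phenotype. Here the replication genes were lower in LSC across most roles: 12 of 40 were called lower by limma with Benjamini-Hochberg adjustment and 0 higher, where 6.21% of all tested genes were called lower and 4.05% higher. At an unadjusted p under 0.05, 24 passed, where 25.9% of all tested genes did. The median log2 difference of the 40 was -1.24, against -0.03 over all tested genes, 38 lay below 0, and 27 were at least 2-fold lower, where 15.5% of all tested genes were. In 27 genes both LSC arrays were below both HSC arrays, where 22.5% of all tested genes were so. Without LSC 1 this count was 30, without LSC 2 it was 33, without HSC 1 it was 36 and without HSC 2 it was 27. Groups of fewer arrays overlap less easily for any gene, so the 22.5% is no background for these counts.

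How many genes were called depended on HSC 2 and on arrays outside the comparison. With HSC 2 left out, 2 members were called, Pole and Lig1. With HSC 1, LSC 1 or LSC 2 left out the counts were 17, 17 and 16. When only the 4 stem cell side arrays were fitted, 0 members passed, so the 12 calls rest on a spread estimated largely from the T cell side. With weights that let noisy arrays count less, 0 members passed too. In LSC the Actb ratio was higher, fewer stem cell markers were above the filter and T cell markers were more abundant. The 10 macrophage markers summed to 14236 and 3530 in LSC 1 and LSC 2, against 30423 and 4805 in HSC 1 and HSC 2. Across the tested genes LSC 2 correlated at 0.87 to 0.90 with the lymphomas. With LSC 1 it correlated at 0.80 and with HSC 1 and HSC 2 at 0.79 and 0.80. The part of these features in the LSC minus HSC differences was not tested.

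Taken array by array, LSC 1 was below HSC 1 in 33 of 40 members and below HSC 2 in 40. LSC 2 was below HSC 1 in 30 and below HSC 2 in 36. The median log2 differences were -0.94 for LSC 1 against HSC 1, -1.91 for LSC 1 against HSC 2, -0.73 for LSC 2 against HSC 1 and -1.53 for LSC 2 against HSC 2. Over all tested genes these medians lay between -0.07 and 0.03. Each pairing thus had most members on the LSC-low side, and the choice of HSC array changed the size more than the choice of LSC array.

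**Figure D3:**
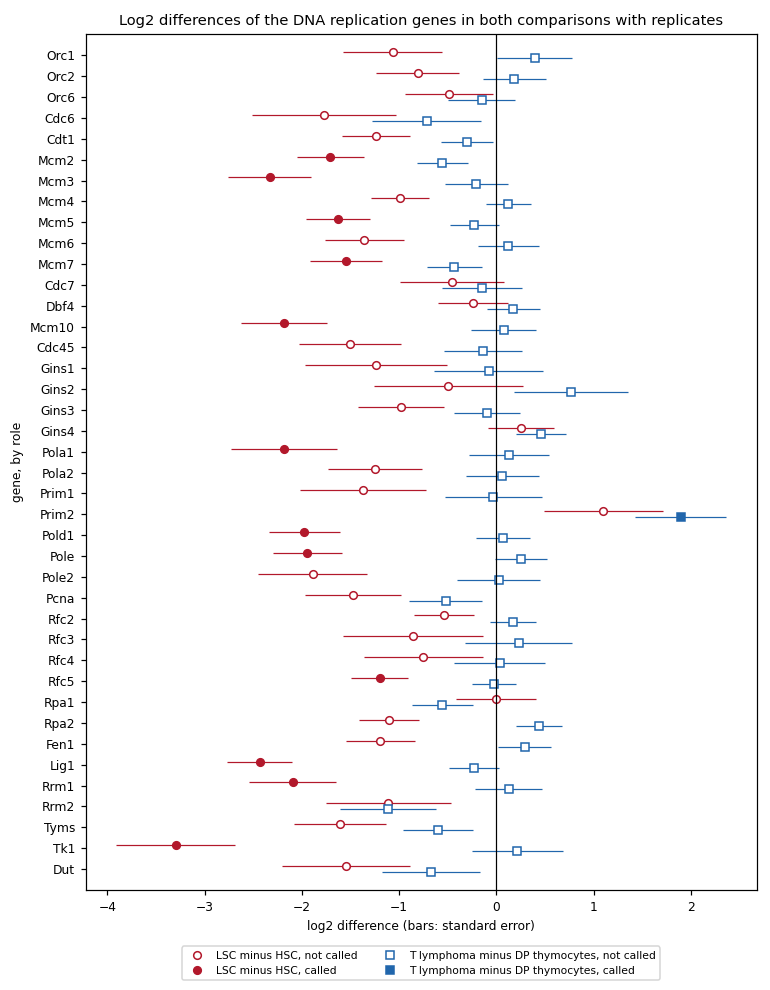
Log2 difference of each of the 40 DNA replication genes (horizontal axis, bars are standard errors) for LSC minus HSC (circles) and T lymphoma minus DP thymocytes (squares), with genes ordered by role and filled symbols marking an adjusted p under 0.05. Of the circles, 38 lie below 0 and 12 are filled; the squares lie on both sides of 0, and only Prim2, at 1.89, is filled.

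No origin recognition or firing kinase gene was called between LSC and HSC. Orc1 was at -1.07, Orc2 at -0.81 and Orc6 at -0.49, and 0 of 3 were called. Cdc7 was at -0.46 and Dbf4 at -0.24, and in both the groups overlapped. The licensing factors were lower by more: Cdc6 at -1.77 ± 0.74 (SE) and Cdt1 at -1.24 ± 0.35, neither called. Cdt1 measured 10.82 and 10.95 in LSC, against 11.81 and 12.43 in HSC, with an adjusted p of 0.0544 by limma. Another Cdt1 probe set was called lower, at -1.98 (adjusted p = 0.0149 by limma).

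All 6 genes of the MCM ring had both LSC arrays below both HSC arrays, and 4 of them were called. Mcm3 measured 8.40 and 9.29 in LSC, against 10.68 and 11.67 in HSC, a log2 difference of -2.33 ± 0.43 (SE; adjusted p = 0.0103 by limma). The gap between the groups was wider than the distance between the arrays of either. Mcm2 measured 9.90 and 9.45 in LSC, against 11.02 and 11.75 in HSC (log2 difference -1.71, adjusted p = 0.0153). Mcm5 measured 10.73 and 10.87 in LSC, against 11.96 and 12.91 in HSC (-1.63, adjusted p = 0.0157). Mcm7 measured 11.01 and 12.07 in LSC, against 12.67 and 13.50 in HSC (-1.55, adjusted p = 0.0312). Mcm6 at -1.36 and Mcm4 at -0.99, the smallest of the ring, were not called.

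Of the helicase activators, only Mcm10 was called. Mcm10 measured 8.16 and 7.29 in LSC, against 9.46 and 10.36 in HSC, a log2 difference of -2.19 ± 0.44 (SE; adjusted p = 0.0155 by limma). Cdc45 differed by -1.51 without overlap. In the GINS complex the subunits spread widely, with Gins1 at -1.24, Gins3 at -0.98, Gins2 at -0.50 and Gins4 at 0.25. Gins2 measured 6.9999 and 9.43 in LSC, against 8.22 and 9.20 in HSC, so the LSC arrays lay on both sides of the HSC pair.

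Catalytic polymerase subunits were among the lowest. Pola1 measured 7.58 and 7.17 in LSC, against 8.80 and 10.31 in HSC (log2 difference -2.18 ± 0.54 SE; adjusted p = 0.0345 by limma). Pold1, the catalytic subunit of the lagging-strand polymerase delta, measured 8.47 and 9.11 in LSC, against 10.61 and 10.93 in HSC (-1.98 ± 0.37; adjusted p = 0.0106). Pole, the leading-strand polymerase, measured 7.94 and 7.69 in LSC, against 9.29 and 10.23 in HSC (-1.95 ± 0.35; adjusted p = 0.00991). For all 3 genes the groups did not overlap. Pole2, an accessory subunit, was at -1.89 and was not called.

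Prim2 went the other way, as 1 of only 2 members above 0, Gins4 being the other. It measured 9.53 and 11.71 in LSC, against 9.10 and 9.94 in HSC, a log2 difference of 1.10 ± 0.61 (SE; adjusted p = 0.303 by limma). LSC 1 lay within the HSC range and LSC 2 above it. LSC 2 had the more T cell marker signal, and the part of T cell RNA in this value was not tested. Prim1 was at -1.37 and Pola2 at -1.25, without overlap, so the primase subunits differed in direction.

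In the clamp and clamp loader group, Rfc5 was called. Rfc5 measured 9.27 and 8.54 in LSC, against 9.79 and 10.43 in HSC (log2 difference -1.20 ± 0.29 SE; adjusted p = 0.0333 by limma). Pcna had the largest difference of the group at -1.47, with 10.84 and 12.46 in LSC against 12.58 and 13.67 in HSC, but LSC 2 reached almost to HSC 1 and the gene was not called. Rfc3, Rfc4 and Rfc2 were at -0.86, -0.75 and -0.54, and their groups overlapped. Rpa1 differed by -0.0047 ± 0.41 (SE), while Rpa2 was at -1.10 without overlap.

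Lig1, the ligase that joins Okazaki fragments, had the lowest p-value of the 40. It measured 8.15 and 8.69 in LSC, against 10.58 and 11.13 in HSC, which puts LSC at 0.185 times the HSC level (log2 difference -2.43 ± 0.33 SE; adjusted p = 0.00265 by limma). The arrays of each group lay close together and far from the other group. The call held in 20 of 22 other settings, with log2 differences between -2.71 and -2.16. Fen1 was at -1.19 and was not called, but its other probe set was called lower, at -2.08 (adjusted p = 0.0308 by limma).

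The largest difference was that of Tk1, the salvage enzyme that phosphorylates thymidine. Tk1 measured 7.09 and 6.51 in LSC, against 9.46 and 10.74 in HSC, 0.102 times the HSC level (log2 difference -3.30 ± 0.61 SE; adjusted p = 0.0107 by limma). Rrm1 measured 9.33 and 9.12 in LSC, against 10.65 and 11.999 in HSC (-2.09 ± 0.45; adjusted p = 0.0195). Both groups were clear of each other in these genes. Tyms, which makes thymidylate, was at -1.61 with levels under the filter on 3 of the 4 arrays, and Dut, which removes dUTP, was at -1.55. Rrm2 was at -1.11 with overlap, since LSC 1 measured 11.38 and LSC 2 8.97, against 10.98 and 11.59 in HSC. Another Rrm2 probe set was called lower, at -2.31 (adjusted p = 0.0150).

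The remaining probe sets of the members mostly shared these directions. In 27 genes a total of 37 other probe sets passed the filter, and for LSC minus HSC 32 of the 37 had the same sign as the one used. Of the 37, 13 were called and 0 were called in the opposite direction. Those with the opposite sign were 1 of Cdc45 (0.15) and 2 each of Pola2 (0.07 and 0.14) and Rfc2 (0.30 and 0.12). Others shared the sign at a smaller size, such as those of Pole2 (-0.28), Orc1 (-0.23) and Mcm4 (-0.29). For these members the difference thus depended on the probe set used.

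**Figure D4:**
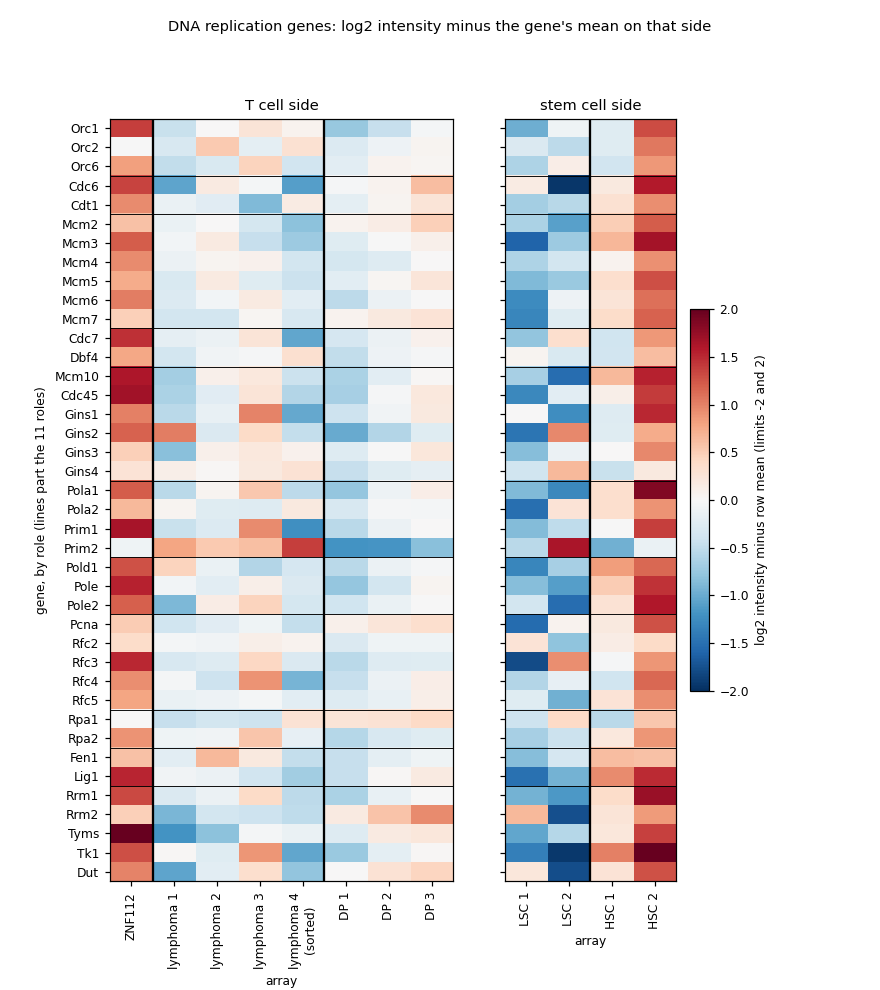
Log2 intensity of the 40 DNA replication genes (rows, lines part the 11 roles) on each array (columns), minus the gene's mean over the arrays of that side, in red above and blue below. The cell line and HSC 2 columns are red for nearly all genes; Prim2 is red in all 4 lymphomas and LSC 2, and Prim2, Rfc3 and Gins2 are red in LSC 2 where Cdc6, Rrm2 and Dut are blue.

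The LSC minus HSC difference was compared with the T lymphoma minus DP thymocyte difference in the same fit; these contrasts share no arrays, only the estimate of the spread. By limma with Benjamini-Hochberg adjustment, 8 of 40 members were lower and 0 higher in this difference of differences, where 5.28% of all tested genes were called lower and 3.59% higher. The 8 were Tk1 (-3.51), Mcm10 (-2.26), Rrm1 (-2.22), Lig1 (-2.20), Pole (-2.20), Mcm3 (-2.12), Pold1 (-2.05) and Rpa2 (-1.54), with adjusted p between 0.0145 and 0.0413. At an unadjusted p under 0.05, 18 passed, where 25.4% of all tested genes did. The median of the 40 was -1.16, against -0.02 over all genes. Rpa2 was at -1.10 in LSC and 0.44 in T lymphoma, each against its own normal cells, and was called in neither. The count was 1 without DP 1 or without DP 2, 2 without DP 3, lymphoma 2 or HSC 2, 5 without lymphoma 1 or 3, and 13 without HSC 1 or LSC 2. Prim2 (-0.79) and Rrm2 (0.00055) were not called in this test.

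The ZNF112 cell line, with 1 array, was set against the primary lymphomas. Nearly all replication genes read higher in the cell line: 38 of 40 lay above the T lymphoma mean, 25 of them by at least 2-fold, where 7.34% of all tested genes were so. The median log2 difference was 1.08, against 0.03 over all tested genes. By limma with Benjamini-Hochberg adjustment 0 of 40 members were called, where 0.539% of all tested genes were called higher and 0.617% lower, and 18 members had an unadjusted p under 0.05, where 12.1% of all tested genes had. Its single array has no spread of its own, and that of the other groups stood in for it. The shares of called genes belong to the main fit and are no background for the called counts under other settings below. In 35 members the cell line was above all 4 lymphomas, where 28.6% of all tested genes were so, and in 34 above all 4 lymphomas and all 3 DP samples, where 21.8% were. Leaving out any 1 lymphoma left the first count between 35 and 37. The 28.6% belongs to all 4 lymphomas and is no background for the counts with 1 left out. With weights per array 20 members passed, and with the T cell side fitted alone 5 did. The count was 1 without the sorted lymphoma or either HSC array, and 2 without LSC 1 or LSC 2.

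Tyms was 6.02-fold higher in the cell line, at 10.06 against 6.81, 7.20 and 7.97 in the unsorted lymphomas and 7.87 in the sorted one (log2 difference 2.59 ± 0.53 SE; adjusted p = 0.0577 by limma). The cell line lay well outside the lymphoma range. Lig1 was at 12.62 in the cell line, against 11.02, 10.99, 10.71 and 10.40 in T lymphoma (1.84 ± 0.37; adjusted p = 0.0554). Cdc45 at 1.97, Prim1 at 1.90, Cdc6 at 1.86 and Mcm10 at 1.81 followed, none of them called. Prim2 was the exception: the cell line measured 10.73, below all 4 lymphomas (11.35 to 12.20) and above all 3 DP samples (9.63 to 9.98). Orc2 at -0.09, Gins4 at 0.11 and Rpa1 at 0.25 were close to the lymphoma mean. Against the mean of the DP thymocytes, 38 of the 40 members were higher in the cell line, with a median of 1.12. The cell line had few macrophage transcripts, as did the sorted tumour, and the part of macrophage and stromal RNA in the unsorted tumours was not tested.

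The sorted lymphoma was set against the 3 unsorted ones. By limma with Benjamini-Hochberg adjustment 0 of 40 members were called and 0 had an unadjusted p under 0.05. Over all tested genes 0.0625% were called higher, 0.594% lower, and 9.99% had an unadjusted p under 0.05. The median log2 difference was -0.26, against 0.05 over all genes, and 28 members lay below 0. The range ran from -1.31 (Prim1) to 0.74 (Prim2). Prim1, Tk1, Gins1, Rfc4 and Cdc7 were at least 2-fold lower in the sorted tumour, where 9.1% of all tested genes were, but for each the unsorted tumours were themselves spread over 0.45 to 1.53 log2 units.

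In DP thymocytes and in HSC the replication genes shared their order between samples. In DP thymocytes all 40 members were lowest in DP 1, and 37 were highest in DP 3. Over all tested genes DP 1 was lowest in 39.8% and DP 3 highest in 35.5%. DP 3 exceeded DP 1 by 0.14 (Rpa1) to 0.90 (Pola1) log2 units, with a median of 0.45, against 0.01 over all tested genes. The 15 mitosis genes measured also had their lowest value in DP 1 and their highest in DP 3, in 15 of 15 cases. The Actb ratio differed little between these arrays (2.18 to 2.23).

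The HSC arrays stood apart in the same manner. HSC 2 was above HSC 1 in 39 of 40 members, Fen1 being the exception at -0.03, where HSC 2 was higher in 60.8% of all tested genes. In 18 members HSC 2 was at least 2-fold higher, where 9.67% of all tested genes were so, and the median was 0.97 against 0.17. Gins1 differed most, at 10.71 in HSC 2 and 8.94 in HSC 1. The mitosis genes were higher in HSC 2 in 14 of 15 cases. The 10 macrophage markers summed to 4805 in HSC 2 and 30423 in HSC 1, and the Actb ratio was lower in HSC 2, and their part in this gap was not tested.

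The LSC arrays differed by gene. LSC 2 was higher than LSC 1 in 25 members, where 51.3% of all tested genes were so, with a median log2 difference of 0.38 against 0.03 over all tested genes. It was at least 2-fold higher in 10, where 16.8% of all tested genes were so. In 6 it was at least 2-fold lower, where 18.7% of all tested genes were so. The differences ran from -2.41 (Rrm2) to 2.71 (Rfc3). Rfc3, Gins2, Prim2, Pola2 and Pcna were higher in LSC 2 by 1.62 to 2.71, and Rrm2, Cdc6, Dut, Gins1 and Pole2 lower by 1.16 to 2.41. In the lymphomas 24 members were highest in lymphoma 3, where 29.5% of all tested genes were. The lowest value was in the sorted tumour for 18 and in lymphoma 1 for 15 members, where 26.9% and 19.6% of all tested genes were lowest in those arrays. The members' median SD was 0.39 in T lymphoma, 0.23 in DP thymocytes, 0.55 in LSC and 0.68 in HSC, against 0.32, 0.11, 0.46 and 0.31 over all tested genes in those groups. The distance between the HSC arrays therefore limits how closely any HSC level of these genes is known.

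Genes around the core machinery were read from lists of further replication genes (40 measured), E2F and S phase control (16) and mitosis (15). Between LSC and HSC, 8 of the 40 further replication genes were called lower and 1 higher by limma, with a list median of -0.87. Of all tested genes, 6.21% were called lower and 4.05% higher. Dctd, which deaminates dCMP, was called lower, at 4.83 and 4.25 in LSC against 7.94 and 9.29 in HSC (adjusted p = 0.000525). Its LSC values, like those of every array outside HSC, were under the filter on low values, so the gene entered the test only through HSC and the size of its difference is not given. Pold2, the accessory subunit of polymerase delta, was called lower at -2.87, and the fork protein Timeless at -1.996. The helicase Recql4 at -1.61 and the checkpoint adaptor Clspn at -1.50 were also called lower. In LSC 1 Recql4 was under the filter, at 5.78, and Pold2 was at the filter level, at 6.33. Rrm2b, the ribonucleotide reductase subunit induced by p53, was the gene called higher, at 10.65 and 9.25 in LSC against 8.20 and 8.63 in HSC (1.54, adjusted p = 0.0397).

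Of the 16 E2F and S phase genes 3 were called lower between LSC and HSC: Ccna2 at -2.70, Ccne1 at -1.95 and Cdc25a at -1.80. Rb1, the restraint on E2F, was called higher at 1.19. The shares of all tested genes called here were 6.21% lower and 4.05% higher. The mitosis genes were all below 0, with 6 of 15 called: Plk1 (-2.51), Kif11 (-2.20), Birc5 (-2.14), Ccnb2 (-2.03), Aurka (-1.90) and Cdc20 (-1.46). Plk1 was under the filter in LSC 1, at 5.96. Mki67, Top2a and Cdk1, which mark cycling cells, were at -1.28, -1.59 and -2.18 and were not called (adjusted p = 0.151, 0.0529 and 0.0609).

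In T lymphoma, 2 of the 40 further replication genes were called higher than in DP thymocytes and 0 lower, with a list median of 0.06. Of all tested genes, 3.37% were called higher and 3.18% lower. Samhd1, which breaks down dNTPs, measured 13.06, 10.35 and 11.58 in the unsorted lymphomas and 8.95 in the sorted one, against 5.98, 6.69 and 6.69 in DP thymocytes (log2 difference 4.54 ± 0.82 SE; adjusted p = 0.0101 by limma). All lymphomas were above all DP samples, and the sorted tumour was the lowest of the tumours. It also had the fewest macrophage transcripts of them, and the part of macrophage RNA in the Samhd1 values was not tested. Shmt1, of the one-carbon path to thymidylate, was at 1.72. E2f2 measured 9.17, 8.33, 8.45 and 8.65 in T lymphoma, against 12.64, 12.59 and 12.83 in DP thymocytes, a fall of 4.04 log2 units (adjusted p = 2.9e-05). Rb1 was lower by 0.96 on the log2 scale, as 1 of 2 genes called lower in its list. In the mitosis list 0 of 15 genes were called and 1 had an unadjusted p under 0.05, where 22.6% of all tested genes had. Mki67, Top2a and Cdk1 were at -0.12, 0.0018 and 0.56.

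In the cell line Recql4 (2.57) and Ticrr (2.45), a factor for origin firing, were the only genes called in these lists, both higher than in T lymphoma. Of all tested genes, 0.539% were called higher there and 0.617% lower. Mki67 was at 1.17, Top2a at 1.34 and Cdk1 at 1.64 there, none of them called. In the difference of the LSC and T lymphoma contrasts, the genes called were Pold2 (-3.24), Shmt1 (-3.07), Timeless (-2.32), Mcm8 (-1.86), Pole3 (-1.80), Birc5 (-2.36), Dck (1.74), E2f2 (3.32) and Rb1 (2.14). Dctd was also called lower, but only its HSC levels were above the filter, and Mcm8 was under the filter on both LSC arrays.

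Promoters of the members were searched for E2F motifs, because these factors control many replication genes, in the 250 bases before each start site in RefSeq (GRCm38.p6). Of the 40 members 33 had a promoter in the table. The letters searched were TTTGGCGC, TTTCCCGC, TTTCGCGC and TTTGCCGC on both strands. At least 1 was present for 8 of the 33 genes (24.2%), against 2.16% of all 27025 genes in the table. The motif CCAAT, on either strand and sharing no full match with the E2F letters, was present for 19 of the 33 (57.6%), against 37.5% of all genes. The 8 genes with E2F letters were Mcm5, Mcm6, Mcm7, Cdc6, Gins3, Orc1, Pola1 and Rfc3. Between LSC and HSC 3 of these 8 were called lower, with a median log2 difference of -1.45, against 8 of the 25 without the letters and a median of -1.37. Presence of the letters thus did not part the members by the size of their difference. The promoter stretches of the 3 genes that were both called lower in LSC and hold a motif are shown 5′ to 3′ on the strand of the gene, with the motif letters in capitals; they are Pola1 at chrX:93632234-93632333 (minus strand), Mcm5 at chr8:75109316-75109415 (plus strand) and Mcm7 at chr5:138171989-138172088 (minus strand).
Pola1: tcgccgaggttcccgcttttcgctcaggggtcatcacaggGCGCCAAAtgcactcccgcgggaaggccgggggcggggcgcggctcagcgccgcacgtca
Mcm5: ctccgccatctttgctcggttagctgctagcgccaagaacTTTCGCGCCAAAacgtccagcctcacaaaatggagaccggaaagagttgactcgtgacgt
Mcm7: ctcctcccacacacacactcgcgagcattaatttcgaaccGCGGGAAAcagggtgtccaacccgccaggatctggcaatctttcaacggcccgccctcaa
The match in Pola1 began 138 bases before the start site and that in Mcm7 165 bases before it. Mcm5 held a pair of overlapping matches on opposite strands, beginning 153 and 149 bases before the start. These are matches of letters, and binding was not measured.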

How the data were processed

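RNA of 12 mouse samples was measured on Affymetrix Mouse430 2.0 arrays after Trizol extraction and amplification in 2 cycles, per the labels' protocols. The values deposited by the authors are linear-scale intensities, 1 per probe set; RMA is named per the submitters' processing notes, with no version, and its settings are not given in the sources used here. RMA gives log2 values, so the deposited intensities had been turned back, and log2 was taken again. Of 45101 probe sets, 64 were array controls, 34945 had 1 symbol in the platform annotation, 932 several and 9160 none here. Genes above log2 6.33 (intensity 80.2, the median of all values) on at least 2 arrays were tested, by the limma package (version 3.58.1, R version 4.3.3; two-sided eBayes statistics from lmFit, a mean per group over all 12 arrays); a Benjamini-Hochberg adjusted p under 0.05 over all genes tested was a call. Arrays give no sequencing depth, and precision is set by how many arrays a group has. The code was tested on simulated data. Replicate numbers did not pair the samples (r of -0.07 to 0.10 between same-numbered samples). The members, gene lists, marker lists and alternatives were chosen with earlier results of these data known. Named were called members (at most 12 per comparison), the largest and smallest difference in each role for both replicated comparisons, up to 6 called genes of each other list, and Mki67, Top2a and Cdk1. Promoters were shown for up to 4 called members with E2F letters. Some listed genes, such as Ssrp1, Chaf1a and Ccnb1, were not analysed here. Alternatives were other normalizations, filters, probe set rules, an offset before log2, a mean-variance trend, array weights, a replicate block and leaving out each array. Leaving out single arrays from the counts of non-overlapping groups was added after seeing the data.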

Additional observations from a re-analysis of the deposited data

Results flagged for a closer look

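In 5 of the 40 genes 1 lymphoma lay far from the other 3, by a gap above Dixon's critical value for 4 samples; chance flags about 1 in 20 groups. Mcm7 in lymphoma 3 was at 13.70 on the log2 intensity scale, against 13.28 to 13.34 in the other lymphomas. Rfc3 in lymphoma 3 was at 9.34, against 8.61 to 8.67, and Rpa2 in lymphoma 3 at 11.65, against 10.92 to 11.03. Gins3 in lymphoma 1 was at 7.43, against 8.36 to 8.48. Rpa1 in the sorted lymphoma was at 13.74, against 12.98 to 13.08 in the unsorted ones.

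For 8 genes the LSC minus HSC difference and the T lymphoma minus DP thymocyte difference departed from each other in limma's test of the difference itself. On the log2 scale the values were -3.51 for Tk1, -2.26 for Mcm10, -2.22 for Rrm1, -2.20 for Lig1, -2.20 for Pole, -2.12 for Mcm3, -2.05 for Pold1 and -1.54 for Rpa2. Lig1 kept its call in 20 of 21 other settings and Pole in 18, while Mcm3, Mcm10, Rpa2 and Rrm1 kept theirs in 10.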

How the results depend on the processing

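The counts of called members moved with the processing, and no direction of a called gene reversed. The shares over all tested genes given earlier belong to the main fit and are no background for the counts under other settings. For T lymphoma minus DP thymocytes (1 member) the count was 3 with only the arrays of that side, 6 with array weights, and 0 with each array centred on its median, with no filter, with the mean of all probe sets, with the sorted lymphoma as the only lymphoma, and with the replicate number as a block. Leaving out 1 array gave 0 to 2. For LSC minus HSC (12) it was 0 with only the 4 stem cell side arrays and 0 with array weights, and leaving out 1 array gave 2 to 17. For the difference of these contrasts (8) it was 4 with centred arrays, 5 with the mean of all probe sets and 0 with array weights, and leaving out 1 array gave 1 to 13. For the cell line minus T lymphoma (0) it was 5 with only that side, 1 with quantile normalization, 1 with the mean of all probe sets, 2 with an offset of 16, 20 with array weights and 2 with the replicate block, and leaving out 1 array gave 0 to 2. For the sorted lymphoma it was 0 in all settings run. The cause of these moves was not tested, beyond the fewer arrays or genes that a setting leaves. Pairing by replicate number was not borne out, since same-numbered samples did not deviate together; the block gave 14 members for LSC minus HSC and 8 for the difference. No paired analysis was possible for the sorted lymphoma because it has no partner number. The mean of all probe sets left 39 members in the test. Groups of 2 arrays, a lone cell line and a lone sorted tumour limit what could be resolved.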
